A study of Mus musculus with 860 samples.

Results

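The genes described here are 8 mouse genes that handle fatty acids and lipoproteins at the vessel wall: Fabp4, Fabp5, Cd36, Mgll, Gpihbp1, Lpl, Cav1 and Cav2. They were followed by gene symbol in a table of 46078 genes counted in single cells of the embryonic aorta, across stage, sorted population and cluster. The set was named for a higher level at E11.5 than at E10.5, so its stage difference is given as a description and not as a finding. Of the 8 genes, 6 bore that name out in at least 1 sorted population by the 2-fold rule given below. Fabp5 did not pass the rule between whole populations, and Lpl stayed at 12.1 CPM or lower in both GFI1+ populations, with overlapping stages.

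Cells came from the aorta-gonads-and-mesonephros region (AGM), where the first haematopoietic stem cells arise, of embryos of strain CD1 carrying the Gfi1:tomato reporter, without treatment. Flow cytometry gave 3 populations: haemogenic endothelium (HE), which was CD31+cKIT-GFI1+; cells of the intra-aortic haematopoietic clusters (IAHC) positive for the reporter, CD31+cKIT+GFI1+; and IAHC cells without it, CD31+cKIT+GFI1-. The gates set a cell's population by 3 proteins alone, the age field of the labels reads 6-8 weeks old for all cells although the stages are embryonic, and no embryo or litter is named for any cell. Of 860 sequenced cells, the 775 kept by the authors were used, 547 of them from E11.5. At E10.5 there were 18 (batch GL58) and 91 (GL78) HE cells, 29 (GL69) and 87 (GL78) GFI1+ IAHC cells, and 3 GFI1- IAHC cells, the last too few to compare. E11.5 HE made up 22.2% of all kept cells (19 in GL58, 40 in GL78 and the rest in GL53), E11.5 GFI1+ IAHC had 240 cells (30 in GL58, 89 in GL78 and the rest in GL53), and E11.5 GFI1- IAHC had 91 in GL53 and 44 in GL78. None of the 15 plates held both stages, so stage and plate cannot be told apart within a batch.

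Each deposited sample was 1 cell, and cells of a group share their source, so counts were summed over the cells of a group and batch and given as counts per 1000000 counts (CPM). Summed totals of the 12 sums with 10 or more cells ran from 16913280 to 81413219 counts, and the median cell of a sum held 554358 to 1027320 counts. Each group counts as 1 sample and no test was run. An error after ± is the SD over batches, an interval is an exact 95% interval for counting error only, and reads without molecular identifiers are not independent molecules. The pan-endothelium list summed to between 5393 and 14073 CPM in every sum with none of its 14 genes at 0. Of the 6 adipocyte genes, 4 or 5 were at 0 in every sum.

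Capillary endothelium passes fatty acids from blood lipoproteins to the tissue beneath. Lipoprotein lipase, made by other cells, is held on the luminal face by GPIHBP1 and releases fatty acids, which CD36 and the flask-shaped membrane pits called caveolae help to take up. Inside the cell, small binding proteins of the FABP family carry the fatty acids, and monoacylglycerol lipase, encoded by Mgll, frees the last fatty acid of a glyceride.

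The genes lie on 5 chromosomes in GRCm38 (mm10), the build the authors mapped to. Fabp5 (chr3:10012548-10016607, + strand) and Fabp4 (chr3:10204088-10208576, - strand) are 187.5 kb apart with 4 coding genes between them. Cav2 (chr6:17281185-17289115) and Cav1 (chr6:17306335-17341452) follow each other on the + strand with no coding gene in the 17.2 kb between. Mgll (chr6:88724412-88828360, + strand) lies farther along the same chromosome. Cd36 is at chr5:17781690-17888801 on the - strand, Gpihbp1 at chr15:75596628-75599481 on the + strand and Lpl at chr8:68880491-68907448 on the + strand. An antisense gene, Gm15581, overlaps Cav1 and Cav2, and 5 predicted genes overlap Mgll. Whether counting used strand is not given in the sources used here, so reads of such partners could not be separated.

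RefSeq start sites of this build were matched for 4 of the 8 genes, and the 250 bases upstream are printed for them because these genes differed between stages, populations or clusters, and Cav1 and Cav2 went together. Capitals mark any match, on either strand, to the nuclear receptor motif AGGTCA, the AP-1 site TGACTCA or the GC box GGGCGG. The coordinates are chr6:17280935-17281184 (+) for Cav2, chr6:17306085-17306334 (+) for Cav1, chr6:88724162-88724411 (+) for Mgll and chr5:17835897-17836146 (-) for Cd36, the last inside the Cd36 gene.
Cav2 promoter: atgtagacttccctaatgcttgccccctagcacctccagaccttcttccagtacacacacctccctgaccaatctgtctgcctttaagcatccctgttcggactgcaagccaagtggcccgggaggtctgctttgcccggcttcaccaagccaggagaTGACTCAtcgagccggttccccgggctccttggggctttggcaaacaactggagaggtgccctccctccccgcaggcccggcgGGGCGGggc
Cav1 promoter: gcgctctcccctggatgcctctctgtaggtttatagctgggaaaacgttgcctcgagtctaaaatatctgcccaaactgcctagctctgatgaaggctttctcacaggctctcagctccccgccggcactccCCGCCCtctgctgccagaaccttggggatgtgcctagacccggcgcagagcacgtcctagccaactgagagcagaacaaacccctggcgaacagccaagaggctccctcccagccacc
Mgll promoter: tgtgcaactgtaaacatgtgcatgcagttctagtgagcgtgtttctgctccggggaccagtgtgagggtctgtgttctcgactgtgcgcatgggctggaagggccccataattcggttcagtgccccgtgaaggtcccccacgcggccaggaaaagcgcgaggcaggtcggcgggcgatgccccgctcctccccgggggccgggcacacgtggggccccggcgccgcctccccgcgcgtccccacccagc
Cd36 promoter: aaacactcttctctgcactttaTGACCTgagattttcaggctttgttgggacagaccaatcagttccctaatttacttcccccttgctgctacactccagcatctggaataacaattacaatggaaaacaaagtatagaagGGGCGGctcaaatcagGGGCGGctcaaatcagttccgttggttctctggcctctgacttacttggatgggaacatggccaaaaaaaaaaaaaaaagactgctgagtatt

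Across all 32851 promoters of the same length, 14.02% held AGGTCA, 4.46% TGACTCA and 32.7% GGGCGG. The Cd36 window held AGGTCA on the opposite strand near its far end, and a pair of GC boxes, the nearer at 93 bases before the start. The Cav2 window held the AP-1 letters at 92 bases and a GC box at 9 bases before the start. The Cav1 window held a GC box on the opposite strand, near its middle. None of the 3 motifs was in the Mgll window printed, which was the richest of these 4 in CpG with 23 of them, against a median of 6 over all promoters. Mgll and Cav1 each had a further RefSeq start site whose window is not printed, at chr6:88724454-88724703 with 40 CpG and a GC box on the opposite strand for Mgll, and at chr6:17307390-17307639 with 12 CpG and none of the 3 motifs for Cav1. Cd36 was the poorest, with 3 CpG and a GC content of 43.2% against a median of 52.4%. Fabp4, Fabp5, Gpihbp1 and Lpl are named only.

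Compared per kilobase of exon, Fabp5 and Cav1 were the most abundant of the genes at both stages. In E10.5 HE the order was Fabp5 (34.5 ± 7.87 CPM per kb, n = 2 batches), Cav1 (24.5 ± 6.04), Gpihbp1 (5.67 ± 0.150), Cav2 (5.53 ± 0.752), Mgll (0.663 ± 0.0664), Cd36 (0.391 ± 0.209), Lpl (0.377 ± 0.149) and Fabp4 (0.0261 ± 0.0369). In E11.5 HE it was Cav1 (160.7 ± 55.1 CPM per kb, n = 3 batches), Fabp5 (65.7 ± 7.67), Gpihbp1 (29.2 ± 1.94), Fabp4 (21.3 ± 8.92), Cav2 (20.5 ± 5.27), Mgll (17.4 ± 3.08), Cd36 (6.85 ± 3.25) and Lpl (0.382 ± 0.125). Fabp4 thus stood last at E10.5 and within the spread of Cav2 at E11.5. Gpihbp1 and Cav2 lay within each other's spread at E10.5, as did Cd36 and Lpl.

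**Figure D1:**
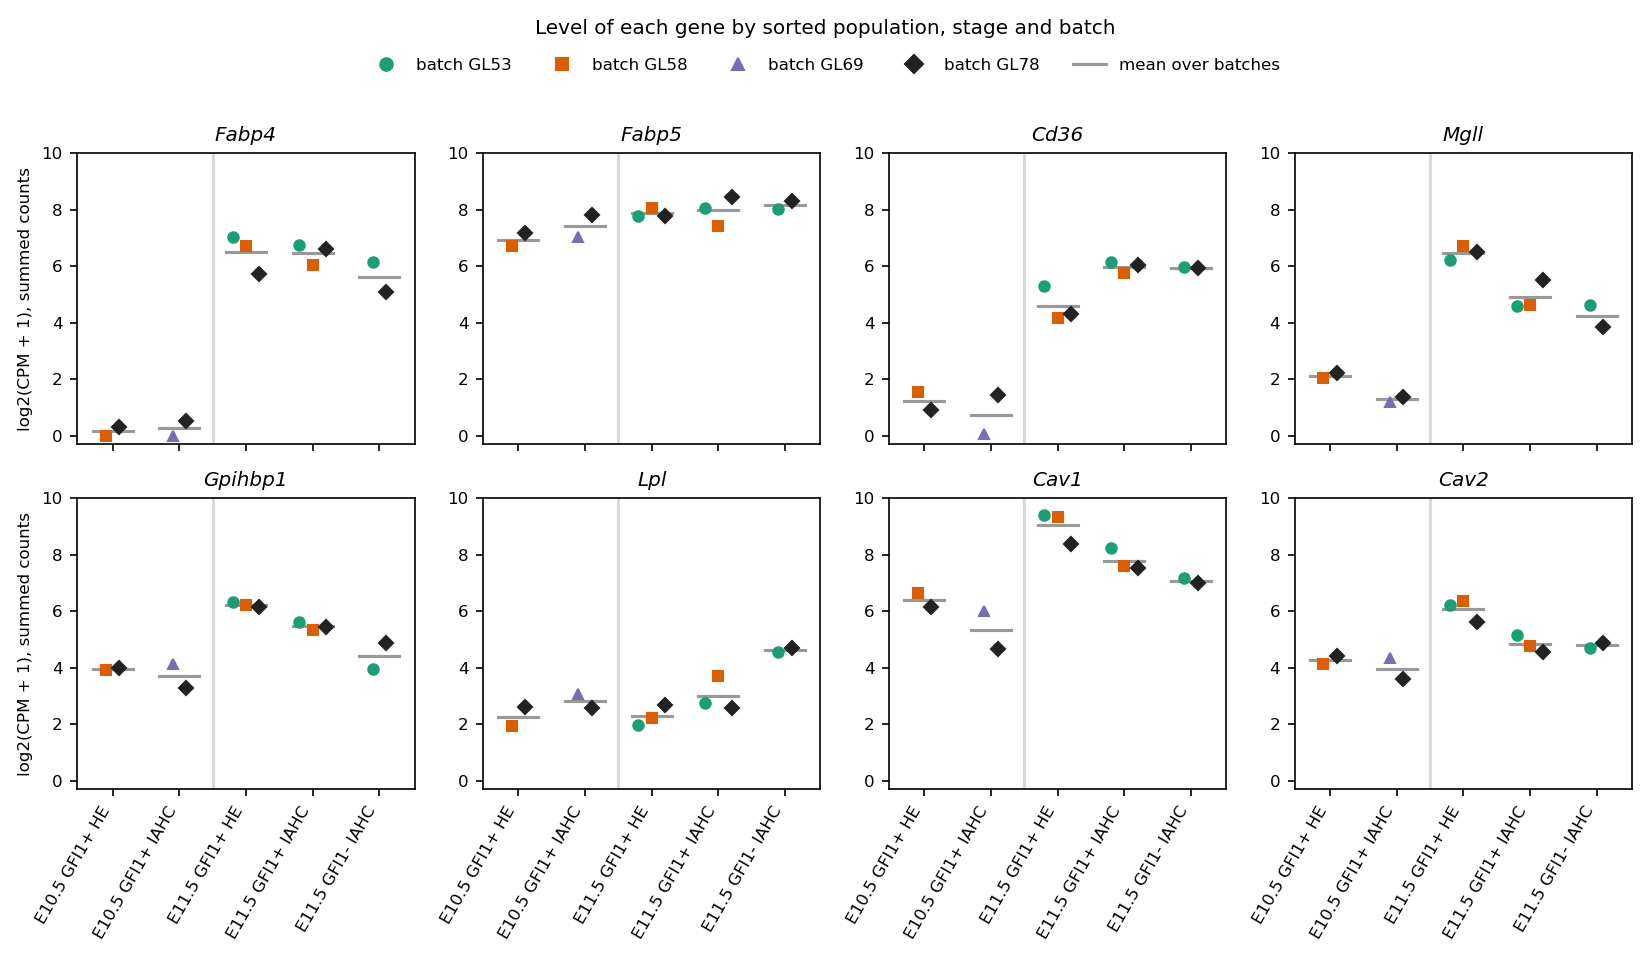
Level of each gene as log2(CPM + 1) of summed counts (vertical axis) in the 5 groups with 10 or more cells a batch (horizontal axis); each point is 1 batch, the grey line the mean over batches, and the vertical line parts E10.5 from E11.5. Fabp4, Cd36 and Mgll sit near the floor at E10.5, Fabp5 is high at both stages, and Lpl is highest in E11.5 GFI1- IAHC.

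Gpihbp1 encodes the anchor that holds lipoprotein lipase on the capillary surface. In HE it stood at 14.2 CPM (GL58) and 14.8 CPM (GL78) at E10.5, and at 79.7, 74.4 and 69.8 CPM (GL53, GL58 and GL78) at E11.5. GFI1+ IAHC had 16.4 (GL69) and 8.80 CPM (GL78) at E10.5 and 48.7, 38.99 and 42.9 CPM at E11.5. The stages did not overlap in either population. Within batches the ratio was 5.23 (4.56 to 6.02) in GL58 and 4.73 (4.40 to 5.08) in GL78 for HE, and 4.87 (4.47 to 5.32) in GL78 for IAHC. These were the steadiest of the within-batch stage ratios over all cells. Over other settings the log2 ratio of Gpihbp1 ran from 1.95 to 2.77 in HE and from 1.72 to 4.93 in IAHC. In phase G1 cells of GL78 IAHC it was at 0.357 CPM at E10.5 and 40.5 CPM at E11.5.

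Lpl encodes the lipase itself. In HE it was at 2.84 and 5.05 CPM at E10.5 and at 2.94, 3.61 and 5.46 CPM at E11.5. In GFI1+ IAHC it was at 7.47 and 5.03 CPM at E10.5 and at 5.77, 12.1 and 4.98 CPM at E11.5. These values overlapped between stages, and few cells carried them. In E11.5 HE of GL78, all its counts came from 1 of 40 cells. The GL78 stage ratio was 1.08 (0.9004 to 1.296) in HE and 0.991 (0.851 to 1.15) in IAHC, and the gene fell short of the 10 CPM required of a measured gene in both stage comparisons.

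Cd36 encodes a scavenger receptor that takes up long-chain fatty acids. In HE it was at 1.93 and 0.872 CPM at E10.5 and at 38.03, 17.03 and 18.7 CPM at E11.5. In GFI1+ IAHC it was at 0.0340 and 1.69 CPM at E10.5 and at 69.5, 52.6 and 64.9 CPM at E11.5. All E11.5 sums lay above all E10.5 sums. A few cells held much of the HE signal: the highest cell gave 64.7% of the E11.5 counts in GL78 and 41.3% in GL58. Without the highest cell of each group and batch, Cd36 in HE had a log2 ratio of 3.10 but was under the 10 CPM required of a measured gene, while in IAHC it was still called, at 5.04.

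Cav1 and Cav2 encode caveolins, coat proteins of caveolae. Cav1 was at 98.99 and 69.6 CPM in E10.5 HE and at 671.5, 654.6 and 334.7 CPM in E11.5 HE. GFI1+ IAHC had 62.7 and 24.4 CPM at E10.5 and 301.4, 192.1 and 184.7 CPM at E11.5. Reads of Cav1 were in 55.05% of E10.5 HE cells and 90.1% of E11.5 HE cells, and in 44.8% and 72.9% of IAHC cells. With each cell thinned to 50000 counts the shares were 44.95% and 87.2% in HE and 37.9% and 69.2% in IAHC.

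Cav2 was at 16.7 and 20.2 CPM in E10.5 HE and at 74.02, 82.4 and 48.7 CPM in E11.5 HE. GFI1+ IAHC had 19.1 and 11.01 CPM at E10.5 and 35.01, 26.1 and 22.6 CPM at E11.5. The stages did not overlap, but the distance was small in IAHC, where the GL78 ratio was 2.05 (1.88 to 2.24) and 0.98 on the log2 scale with 1 CPM added. In HE of GL78 the ratio was 2.41 (2.25 to 2.59), and with only the E11.5 plate of 48-49 somite pairs in GL78 Cav2 missed the rule.

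Fabp4 encodes a fatty acid binding protein known from adipocytes and capillary endothelium. At E10.5 it was at 0 CPM in HE of GL58 (0 counts in 18 cells, where 3 counts would be 0.171 CPM), 0.234 CPM in HE of GL78, 0 CPM in IAHC of GL69 and 0.437 CPM in IAHC of GL78. At E11.5 it was at 130.9, 104.3 and 52.2 CPM in HE and at 105.4, 64.2 and 96.1 CPM in GFI1+ IAHC. In HE this was at least 611.4-fold higher in GL58, taking 3 counts as the limit of the E10.5 sum, and 222.8-fold (140.5 to 376.8) in GL78. In IAHC it was 219.8-fold (155.6 to 321.7).

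The E10.5 signal of Fabp4 lay in 1 HE cell (0.917%) and 2 GFI1+ IAHC cells (1.72%). At E11.5 it was read in 36.6% of HE cells and in 98 of 240 IAHC cells (40.8%), or 33.1% and 37.5% of cells thinned to 50000 counts. Even at E11.5 the median cell of every group and batch had no read, and the highest cells reached 463.5 to 1651 CPM in the GFI1+ populations. A single cell gave 69.1% of the Fabp4 counts in E11.5 HE of GL58.

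Fabp5 encodes a more widely used binding protein. It was at 103.2 and 142.9 CPM in E10.5 HE and at 220.7, 265.9 and 216.7 CPM in E11.5 HE. GFI1+ IAHC had 128.9 and 223.9 CPM at E10.5 and 266.8, 171.4 and 349.8 CPM at E11.5. The stages did not overlap in HE but did in IAHC. The ratio was 2.58 (2.44 to 2.72) in GL58 and 1.52 (1.47 to 1.56) in GL78 for HE, and 1.56 (1.53 to 1.59) for IAHC in GL78. In cells of phase G1 alone its log2 ratio in HE was 0.09.

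Mgll encodes monoacylglycerol lipase. It was at 3.13 and 3.604 CPM in E10.5 HE and at 72.6, 103.9 and 89.02 CPM in E11.5 HE. In GFI1+ IAHC it was at 1.29 and 1.57 CPM at E10.5 and at 23.3, 23.6 and 45.1 CPM at E11.5. In E10.5 HE of GL58 its 55 counts were in 1 of 18 cells. The stage ratio was 33.2 (25.4 to 44.3) in GL58 and 24.7 (21.8 to 28.04) in GL78 for HE, and 28.7 (23.8 to 34.9) for IAHC.

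A gene was called when it reached 10 CPM in the higher group and was at least 2-fold apart in the same direction in every batch, with 1 CPM added. At E11.5 over E10.5 in HE, 6 of the 7 measured genes of the set were called higher, where 2.48% of all 9808 measured genes were, and none lower, where 1.99% were. Their log2 ratios were 6.07 ± 0.91 for Fabp4, 4.48 ± 0.27 for Mgll, 3.01 ± 0.55 for Cd36, 2.48 ± 0.33 for Cav1, 2.24 ± 0.10 for Gpihbp1 and 1.73 ± 0.72 for Cav2 (SD, n = 2 batches), and Fabp5 had 0.98 ± 0.54. Fabp4 had the highest ratio of all measured genes in HE and Mgll ranked 6. In GFI1+ IAHC 5 of 7 were called, where 8.79% of 9797 measured genes were (2.48% lower): Fabp4 (6.08, rank 2), Cd36 (4.61), Mgll (4.17), Cav1 (2.87) and Gpihbp1 (2.16), but not Cav2 (0.98) or Fabp5 (0.64). Since the set was chosen on this contrast, nothing is read from these counts. The medians over all measured genes were -0.01 in HE and 0.07 in IAHC.

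Other features of the sums moved with stage. The pan-endothelium list summed to 6489 to 8189.5 CPM in E10.5 HE and 10715 to 14073 CPM in E11.5 HE. Cells in phase G1 were 16.7% and 42.9% of the 2 E10.5 HE sums and 31.6% to 65.5% of the 3 E11.5 HE sums. Cells of the authors' Louvain cluster 1, rich in Gpihbp1 and Mgll, were 13.8% of E10.5 and 38.95% of E11.5 HE, and cells of cluster 0, rich in Fabp4 and Cd36, 16.4% of E10.5 and 36.2% of E11.5 GFI1+ IAHC. In GFI1+ IAHC the macrophage list summed to 84.5 to 105.8 CPM at E10.5, with 4 or 5 of its 12 genes at 0, and 117.8 to 353.1 CPM at E11.5, with 0 to 5 at 0, and 8 of 10 measured were called higher. The megakaryocyte list summed to 878.98 to 3963 CPM in E10.5 HE, with none of its 11 genes at 0, and 35.5 to 3115 CPM in E11.5 HE, with 0 to 5 at 0, and 2 were called lower. The erythroid list summed to 385.1 to 764.2 CPM in E10.5 HE and 52.1 to 62.3 CPM in E11.5 HE, with 2 of 7 called lower. The venous and lymphatic list summed to 1255 to 1663 CPM in E10.5 and 2192 to 2852 CPM in E11.5 GFI1+ IAHC, with 7 of 10 called higher, and cells of cluster 2 were 36.2% and 16.2% of these groups. The part of these features in the stage differences was not tested. In cells of clusters 0, 1, 3 and 5 alone, 7 genes were called higher in HE and 6 in IAHC, where 3.99% and 7.799% of all measured genes were, and in cells of phase G1 alone 6 in each, where 4.51% and 13.9% were. In GL58, phase G1 held 16.7% of 18 HE cells at E10.5 and 31.6% of 19 at E11.5, fewer than 10 cells at each stage. The set was chosen on the stage contrast, which holds these cells too, so nothing is read from these counts.

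**Figure D2:**
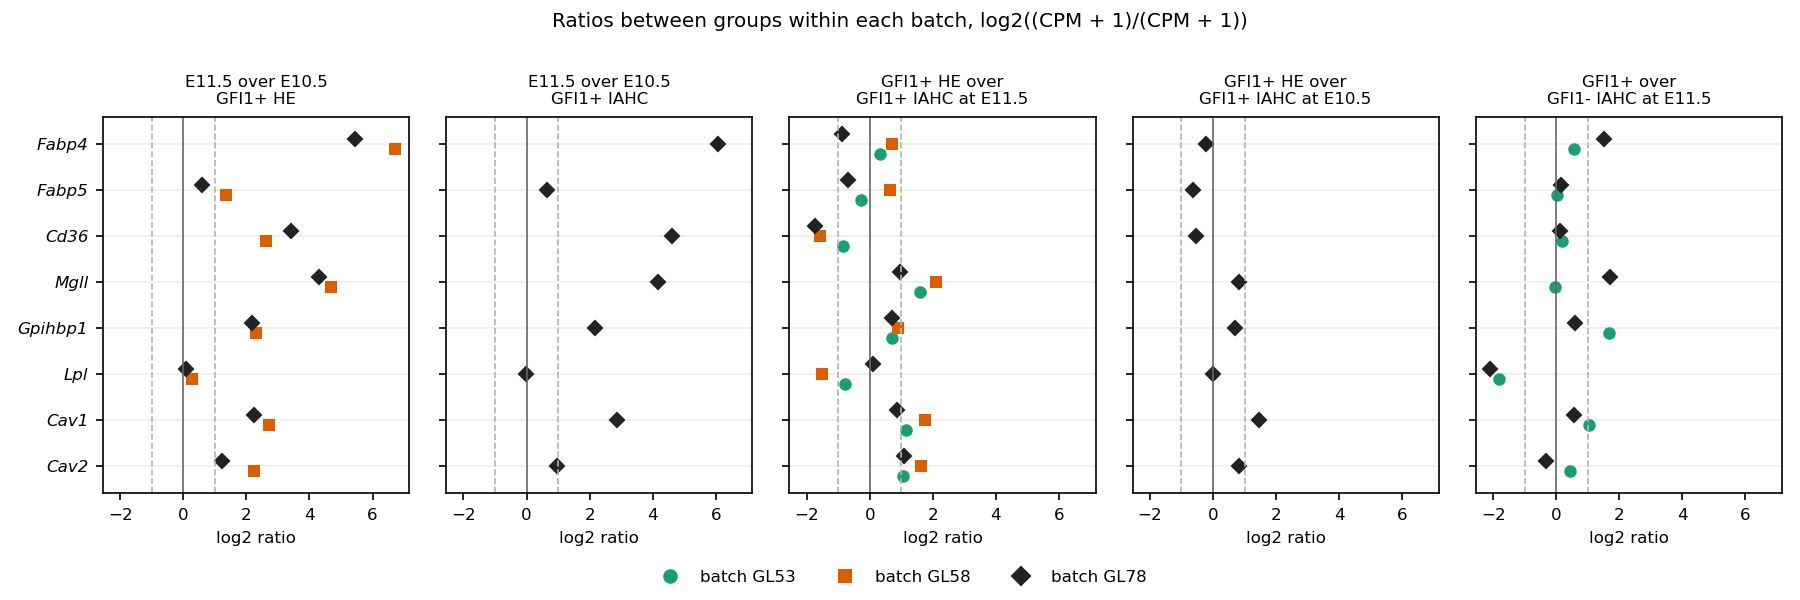
Log2 ratio within each batch (horizontal axis, 1 CPM added) for each gene (vertical axis) in the 5 comparisons; each point is 1 batch, the solid line is at 0 and the dashed lines mark a 2-fold difference. Fabp4 lies at 5.43 and 6.72 in the HE stage comparison and on both sides of 0 between HE and GFI1+ IAHC at E11.5, where Cd36 lies below 0 and Mgll, Cav1, Cav2 and Gpihbp1 above 0 in all 3 batches.

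At E11.5 the set split between HE and GFI1+ IAHC, which differ by surface cKIT in the sort. Cav2, Cav1, Mgll and Gpihbp1 were higher in HE in all 3 batches, Cd36 was higher in GFI1+ IAHC in all 3, and Fabp4 and Fabp5 changed side between batches. Only Cav2 of the 7 measured genes passed the rule, at 1.25 ± 0.32 on the log2 scale (SD, n = 3 batches, from 1.06 to 1.62), where 0.917% of 9923 measured genes were called higher and 0.917% lower. Mgll had 1.55 ± 0.56 with 0.96 in GL78, and Cav1 had 1.26 ± 0.46 with 0.85 in GL78, so both missed it in 1 batch. Gpihbp1 had 0.77 ± 0.13, smaller but the most even over batches.

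Cd36 had a log2 ratio of -1.39 ± 0.47, with HE at 0.547 (0.524 to 0.572) of the IAHC level in GL53, 0.323 (0.284 to 0.368) in GL58 and 0.289 (0.265 to 0.314) in GL78. Its reads were in 23.3% of HE cells and 48.3% of GFI1+ IAHC cells, and in 18.6% and 42.1% after thinning. Fabp4 had 0.04 ± 0.81, with 0.31 and 0.69 in GL53 and GL58 and -0.87 in GL78. Fabp5 had -0.11 ± 0.67. For both the spread over batches exceeded the mean.

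At E10.5, in GL78 alone, 4 of the genes were measured and Cav1 was called higher in HE, at 69.6 against 24.4 CPM and 1.47 on the log2 scale, where 5.47% of 9577 measured genes were called higher and 1.99% lower. Cav2 stood at 20.2 against 11.01 CPM (0.82), Gpihbp1 at 14.8 against 8.80 CPM (0.69) and Fabp5 at 142.9 against 223.9 CPM (-0.64). Restricted to clusters 0, 1, 3 and 5, no gene of the set passed the rule between HE and IAHC at either stage, and the log2 ratio of Cav2 at E11.5 was then 0.79. The arterial endothelium list moved with the same comparison, with 9 of 12 measured genes called higher in HE at E11.5 and 11 of 12 at E10.5, as did the megakaryocyte list at E10.5 with 11 of 11 and the erythroid list with 6 of 7. The haematopoietic progenitor list had 7 of 11 called lower in HE at E10.5 and the germ cell list 6 of 7 lower at E11.5, and cells of cluster 2 were 10.1% of E10.5 HE and 36.2% of E10.5 GFI1+ IAHC. Their part in the caveolin difference was not tested.

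Between GFI1+ and GFI1- IAHC at E11.5 it was Lpl that differed. Lpl was at 5.77 CPM (GL53) and 4.98 CPM (GL78) in GFI1+ and at 22.8 and 24.8 CPM in GFI1- cells. In these batches it was read in 9.92% and 7.87% of GFI1+ cells and in 27.5% and 20.5% of GFI1- cells. Both GFI1- sums lay above both GFI1+ sums of these batches. Its log2 ratio was -1.96 ± 0.21 (SD, n = 2 batches), the only call among 8 measured genes, where 1.76% of 10345 measured genes were called lower and 0.493% higher. Without clusters 6 to 10 it was -2.08 and still called, and in clusters 0, 1, 3 and 5 alone it was -1.66 and not called.

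Macrophage and mesenchyme genes moved with Lpl, the latter unevenly over batches. The macrophage list summed to 117.8 to 353.1 CPM in GFI1+ and 456.2 to 1125 CPM in GFI1- IAHC with none of its 12 genes at 0 in the latter, and 9 of the 12 were called lower in GFI1+ cells. The mesenchyme list summed to 15.2 to 56.5 CPM in GFI1+ and 55.02 to 3333 CPM in GFI1- IAHC. Of its 11 measured genes 4 were called lower, with a median log2 ratio of -4.89 in GL53 and 0.30 in GL78. Over all batches, GL58 included for GFI1+ IAHC, cells of cluster 6 were 0.417% of GFI1+ and 23.7% of GFI1- IAHC. Cells of cluster 10 were 0.833% and 6.67%. Of the 32 GFI1- cells of cluster 6, 31 were in GL53, where they held 653 of the 1196 Lpl counts. The part of these lists and clusters in the Lpl difference beyond the values without these clusters was not tested.

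The capillary genes leaned the other way with uneven batches. Gpihbp1 was at 48.7 against 14.5 CPM in GL53 and 42.9 against 28.1 CPM in GL78, with 1.14 ± 0.77 on the log2 scale. Fabp4 was at 105.4 against 70.3 CPM and 96.1 against 33.1 CPM (1.04 ± 0.66). Mgll was at 23.3 against 23.9 CPM and 45.1 against 13.2 CPM (0.83 ± 1.22), and Cav1 at 301.4 against 145.3 CPM and 184.7 against 125.7 CPM (0.80 ± 0.35). Cd36 (0.15 ± 0.05), Fabp5 (0.10 ± 0.07) and Cav2 (0.07 ± 0.54) lay near 0.

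The authors placed the kept cells in 11 Louvain clusters, made from all genes of these cells, so levels by cluster are a description. Clusters 0, 1, 3 and 5 held the pan-endothelium list at 8613 to 11772 summed CPM and the capillary list at 4120.3 to 5509 CPM. Cluster 4 held the arterial list at 8484 CPM and was also the highest of all clusters for the pan-endothelium list, at 15415 CPM, and the capillary list, at 5778 CPM. The other clusters stood out in other lists, cluster 2 in the haematopoietic progenitor list at 3768 CPM, cluster 7 in the venous and lymphatic list at 4685 CPM, cluster 6 in the mesenchyme list at 8293 CPM, cluster 8 in the germ cell list at 2712 CPM, cluster 9 in the megakaryocyte list at 41311 CPM and cluster 10 in the macrophage list at 11616 CPM. Levels by cluster below pool stages, populations and batches, which the clusters hold in unequal shares, unless a stage is given.

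**Figure D3:**
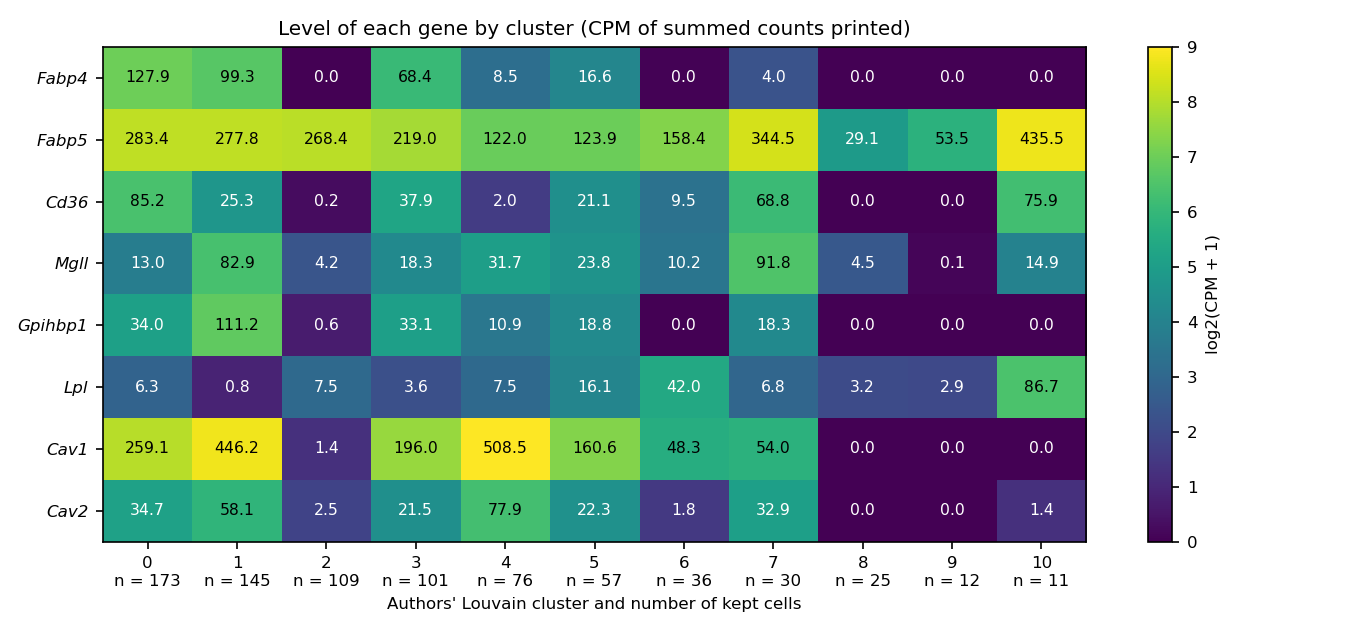
Level of each gene (rows) in each cluster (columns, with the number of kept cells), coloured by log2(CPM + 1) of summed counts with the CPM printed, over all stages, populations and batches. Fabp4 is highest in cluster 0 at 127.9 CPM, Gpihbp1 in cluster 1 at 111.2 CPM, Cav1 in cluster 4 at 508.5 CPM and Lpl in cluster 10 at 86.7 CPM, and clusters 8 and 9 are at 0 for Fabp4, Cd36, Gpihbp1, Cav1 and Cav2.

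Each endothelial cluster had its own mix of the set. Pooled in this way, cluster 0 had the highest Fabp4 (127.9 CPM) and Cd36 (85.2 CPM) but only 13.004 CPM of Mgll. At E11.5 in GL53 the order of Fabp4 depended on the population, with cluster 0 at 189.7 and cluster 3 at 140.6 CPM in GFI1+ IAHC, but 151.7 and 199.9 CPM in GFI1- IAHC. Cluster 1 had the highest Gpihbp1 (111.2 CPM), high Mgll (82.9 CPM) and Cav1 (446.2 CPM), and the lowest Lpl (0.842 CPM, 0.682 to 1.03). Gpihbp1 and its partner Lpl thus peaked in different cells: Lpl was highest in cluster 10 (86.7 CPM, 78.2 to 95.8) and cluster 6 (41.97 CPM), both at 0 counts of Gpihbp1.

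The arterial cluster 4 (76 cells) parted the caveolins from Fabp4, Cd36 and Gpihbp1. It had the highest Cav1 (508.5 CPM) and Cav2 (77.9 CPM), but Fabp4 was at 8.52 CPM with 75.4% of its counts in 1 cell, Cd36 at 2.03 CPM and Gpihbp1 at 10.9 CPM. Fabp5 was not low in this way, at 122.01 CPM in cluster 4 against 123.9 CPM in cluster 5, and was read in 60.5% of cluster 4 cells. Cluster 7 (30 cells) had the highest pooled Mgll (91.8 CPM) with Cd36 at 68.8 CPM and Fabp5 at 344.5 CPM, and Fabp4 at only 3.96 CPM. E11.5 HE cells of cluster 1 exceeded it for Mgll, at 101.1 CPM in GL53 and 182.5 CPM in GL78.

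In cluster 2, the cluster rich in haematopoietic progenitor genes, Fabp5 was the only gene of the set at a high level. It stood at 268.4 CPM, against 283.4 CPM in cluster 0. These values pool stages, and in GFI1+ IAHC cluster 2 was at 398.6 CPM at E10.5 and 149.5 CPM at E11.5 where cluster 0 was at 125.3 and 327.8 CPM. In cluster 2 Lpl was at 7.48, Mgll at 4.21, Cav2 at 2.52, Cav1 at 1.35, Gpihbp1 at 0.601 and Cd36 at 0.225 CPM. Fabp4 had 1 count in 1 of its cells (0.917%, exact interval 0.0232 to 5.01%), against 49.1% of cluster 0 cells, at a median depth of 715266 and 719353 counts. Cells of this cluster had reads of Cav1 in 3.67% and of Fabp5 in 88.99%. Fabp5 was highest in cluster 10, at 435.5 CPM, and lowest in cluster 8, at 29.1 CPM.

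Levels at each stage were then compared within a population and cluster, to hold the cluster fixed. In GL78 alone 2 pairs had 10 or more cells at both stages, clusters 0 and 2 of GFI1+ IAHC. Of their 16 gene ratios, 6 (37.5%) were at least 2-fold higher at E11.5, all in cluster 0, and 5 at least 2-fold lower, all in cluster 2 (Fabp5, Gpihbp1, Lpl, Cav1 and Cav2). Among genes at 10 CPM or more in the higher stage, 12.4% of all genes in cluster 0 were at least 2-fold higher and 5.02% lower, and of the set 6 of 7 were higher. The set was chosen on the stage contrast, which holds these cells too, so nothing is read from this count. In cluster 2 the shares were 21.2% and 17.98%, and Fabp5 was the only gene of the set at that level. In cluster 0 Fabp4 went from 0.995 to 129.6 CPM, Cav1 from 18.01 to 250.3, Cd36 from 9.95 to 91.9, Fabp5 from 107.4 to 377.4, Gpihbp1 from 8.51 to 22.8 and Mgll from 0 to 24.3 CPM (13 and 41 cells), while Cav2 went from 13.7 to 28.2 CPM (0.99 on the log2 scale) and Lpl from 5.43 to 4.63 CPM.

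Fabp5 had opposite stage differences in these clusters. In cluster 2 (36 and 15 cells) it stood at 413.6 CPM at E10.5 and 144.1 CPM at E11.5, a log2 ratio of -1.52, against 1.80 in cluster 0. With the batches of a population pooled, 9 pairs had 10 or more cells at both stages. The log2 ratio of Fabp5 was then above 0 in all 7 pairs of clusters 0, 1, 3 and 5 (0.62 to 2.22) and below 0 in the other 2, at -1.41 in IAHC of cluster 2 (398.6 to 149.5 CPM) and -1.93 in HE of cluster 4 (212.7 to 55.1 CPM). In the latter its reads were in 24 of 27 cells at E10.5 and 18 of 42 at E11.5. In GL78 with 5 or more cells a stage, all 6 Fabp5 ratios of clusters 0, 1, 3 and 5 were 0.87 to 2.60 and the other 3 were -2.06 to -1.25. Over all 8 genes, 36 of 72 ratios were then at least 2-fold higher and 12 lower, and with batches pooled 49 of 72 (68.1%) were higher and 4 lower. Of all genes at 10 CPM or more, 12.4% to 19.1% were higher and 5.02% to 24.2% lower in the 6 pairs of clusters 0, 1, 3 and 5 in GL78, and 10.6% to 18.96% and 2.86% to 9.43% in the 7 pooled pairs. In the other 3 pairs of GL78 these shares were 18.6% to 28.6% and 16.2% to 19.6%. In the other 2 pooled pairs they were 16.01% to 18.4% and 7.21% to 12.7%. The 72 ratios also hold genes under 10 CPM, so they do not match these shares. The set was chosen on the stage contrast, so nothing is read from these counts.

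**Figure D4:**
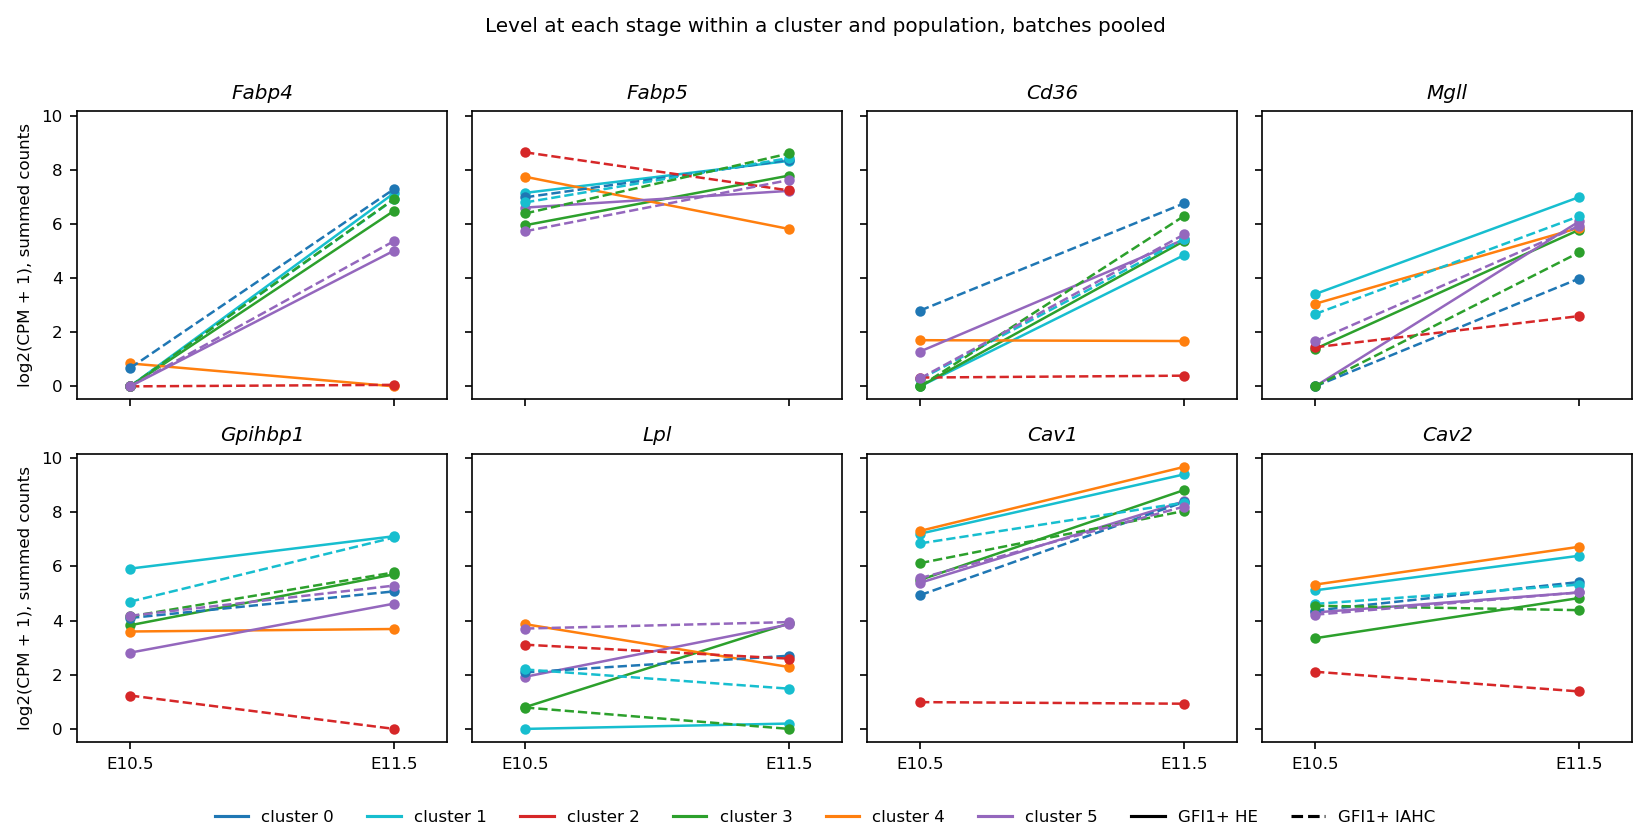
Level as log2(CPM + 1) of summed counts (vertical axis) at E10.5 and E11.5 (horizontal axis) in the 9 pairs of population and cluster with 10 or more cells at both stages, batches pooled; colour gives the cluster and line style the population. For Fabp5 the lines of clusters 2 and 4 slope down and the other 7 up, while for Cav1 the line of cluster 4 slopes up with them, from 157.9 to 817.2 CPM.

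The other genes followed 3 patterns in the pooled pairs. Fabp4 and Cd36 were at least 2-fold higher at E11.5 in all 7 pairs of clusters 0, 1, 3 and 5, with log2 ratios of 5.01 to 7.14 and 3.96 to 6.30. In GL78 alone, with 5 or more cells a stage, this held for each in 5 of 6 pairs. In the sixth, HE of cluster 3 (5 and 19 cells), Fabp4 went from 0 to 0.573 CPM (0.65), Cd36 was at 0 at both stages and Mgll went from 1.61 to 0 CPM (-1.39). With batches pooled both stayed near the floor in the other 2, where Fabp4 had -0.85 and 0.06 and Cd36 -0.03 and 0.07. In HE of cluster 4, 0 of 42 cells had a Fabp4 read at E11.5. Cav1 and Mgll were also higher in HE of cluster 4, at 157.9 and 817.2 CPM for Cav1 (2.36) and 7.27 and 56.9 CPM for Mgll (2.81), as in the 7 pairs of clusters 0, 1, 3 and 5 (1.51 to 3.44 and 3.58 to 6.09). In IAHC of cluster 2 Cav1 was near 0 at both stages (-0.06). Gpihbp1 was above 0 in the 7 pairs (0.98 to 2.37) and at 11.1 and 11.9 CPM in HE of cluster 4. Cav2 ran from -0.16 to 1.48 in the 7 pairs and was at 39.2 and 104.8 CPM in HE of cluster 4, and Lpl ran from -0.79 to 3.09. Pooled batches differ between stages, so batch and stage cannot be told apart in these values.

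Reads of 6 genes of the set (Fabp4, Cd36, Mgll, Gpihbp1, Cav1 and Cav2) were next counted in the same cell. These are the genes called higher at E11.5 in HE, so nothing is read from the stage difference in the shares below. Shares expected from the detection of each gene alone were not worked out. Cells with reads of 4 or more of the 6 were 11.1% and 1.10% of the E10.5 HE sums and 0% and 2.30% of the E10.5 GFI1+ IAHC sums. At E11.5 they were 38.9%, 57.9% and 32.5% of HE, 34.8% to 40.5% of the 3 GFI1+ IAHC sums and 17.6% and 18.2% of GFI1- IAHC. Thinned to 50000 counts the E11.5 shares reached at most 52.6%, 29.8% and 13.6%, and the E10.5 shares at most 5.56%. All 6 genes were read together in 0 of the E10.5 cells, and at E11.5 in at most 2 of 19 cells of any GFI1+ sum.

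Across cells of 1 group and batch, Fabp4 and Fabp5 had the highest median correlation of the pairs compared. Spearman's correlation of their levels was 0.25 to 0.70 (median 0.55) in 7 sets of cells, and 0.53 to 0.59 in 5 sets restricted to clusters 0, 1, 3 and 5. Of the E11.5 cells with a Fabp4 read, 97.9% also had Fabp5, while 40.3% of Fabp5 cells had Fabp4. Among E11.5 cells with 100 or more Fabp5 counts, 44.1% had no Fabp4 read, as did 98.1% at E10.5. The longest run of bases shared by the transcripts of both genes was 16, and by those of Cav1 and Cav2 12. Cells of a set share library preparation and depth varies among them, so these correlations are descriptions.

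**Figure D5:**
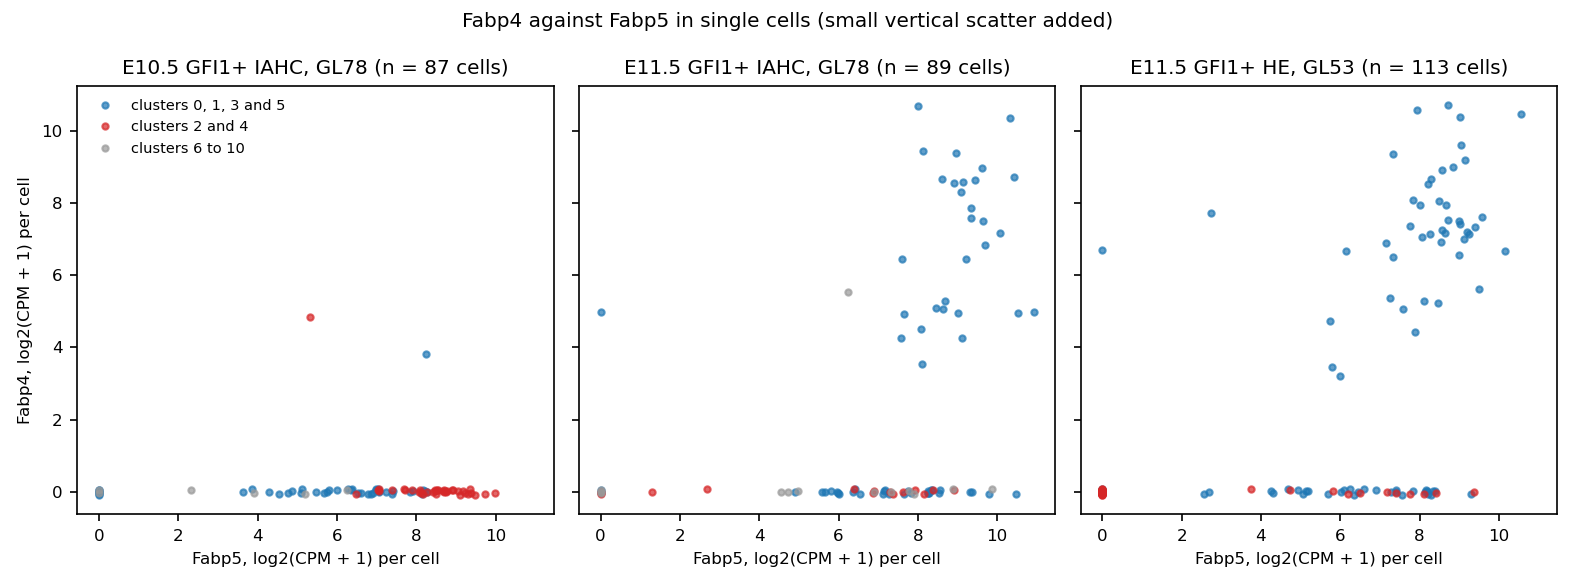
Fabp4 (vertical axis) against Fabp5 (horizontal axis) in single cells as log2(CPM + 1), in GFI1+ IAHC of GL78 at both stages and E11.5 HE of GL53, coloured by cluster; a small vertical scatter separates cells at 0. High-Fabp5 cells carry almost no Fabp4 at E10.5, and at E11.5 the Fabp4 cells are nearly all from clusters 0, 1, 3 and 5 and nearly all have Fabp5.

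Cav1 and Cav2, neighbours on chromosome 6 whose promoters are printed above, had a correlation of 0.41 to 0.72 over 9 sets of cells and 0.19 to 0.56 over 7 sets within clusters 0, 1, 3 and 5. Mgll and Gpihbp1 ran from 0.00 to 0.69 over 6 sets. Cd36 and Gpihbp1, which peaked in clusters 0 and 1 respectively, ran from -0.03 to 0.24 over all clusters and from -0.31 to 0.01 within clusters 0, 1, 3 and 5. Over the 12 sums, which share these same cells, the Pearson correlation of log2(CPM + 1) was highest for Cav1 with Cav2 (0.95), Gpihbp1 with Cav1 (0.93), Fabp4 with Cd36 (0.93) and Fabp4 with Mgll (0.92). Lpl had -0.24 to 0.39 with the other 7. The 12 sums hold both stages, and the set was named for its stage difference, so nothing is read from these values. Across cells of 1 group and batch, the median Spearman correlation was 0.49 for Cav1 with Cav2 and 0.21 for Gpihbp1 with Cav1. For Fabp4 it was 0.39 with Cd36 and 0.26 with Mgll.

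The sorting fluorescence of CD31, an endothelial junction protein stained in every sort, was recorded for each cell. Its Spearman correlation with Cav1 was above 0 in 8 of 8 sets of cells (0.10 to 0.54), with Gpihbp1 in 7 of 7 (0.18 to 0.42), with Fabp4 in 6 of 6 (0.13 to 0.47) and with Cd36 in 5 of 5 (0.01 to 0.44). With Cav2 it was above 0 in 7 of 8 (-0.07 to 0.39), with Fabp5 in 6 of 8 (-0.16 to 0.32) and with Mgll in 4 of 5 (-0.09 to 0.31). With Lpl it was below 0 in 3 of 3 sets (-0.44 to -0.06). CD45, a blood cell protein, had no such common sign, at -0.49 to 0.12 for Cav1 and -0.34 to 0.12 for Fabp4. These correlations pool clusters of different CD31 level.

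Most partners of these genes in lipid handling were not called between stages, which held for most genes of any kind. Of all measured genes, 2.48% were called higher and 1.99% lower in HE, and 8.79% and 2.48% in IAHC. Of 6 measured caveola partners none was called in HE and 1 higher in IAHC, Cavin2 (13.1 to 92.3 CPM, 2.72), while Cavin1, the main caveola coat gene, was at 285.2 and 386.5 CPM in HE (0.44 ± 0.06) and 179.5 and 183.2 CPM in IAHC (0.03). Ehd4 was the lowest of the list in both, at -0.57 ± 0.47 and -0.49. Of 12 measured genes of fatty acid uptake and activation none was called in HE, where Lrp8 (0.79 ± 1.73) and Acsl5 (-0.69 ± 0.01) were the extremes. In IAHC the transporter gene Slc27a1 was called higher (1.15) and the lipoprotein receptor gene Vldlr lower (-1.02).

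Partners of lipoprotein lipase gave no call in HE (4 measured) or IAHC (5 measured). Apoe, a lipoprotein gene, was at 350.5 and 181.1 CPM in HE (-0.95 ± 0.81) and 962.3 and 618.4 CPM in IAHC (-0.64), Sel1l was the highest of the list (0.13 ± 0.17 and 0.24), and Angptl4, an inhibitor of the lipase, was at 13.01 and 7.65 CPM in IAHC (-0.70). Genes of lipid droplets gave none of 10 and none of 9. The droplet coat gene Plin2 had a log2 ratio of 0.31 ± 0.31 in HE and was at 98.1 and 133.7 CPM in IAHC (0.44), and Abhd6 and Daglb were the extremes in HE at 0.81 ± 0.47 and -0.83 ± 0.34. Of 17 measured genes of fatty acid oxidation 1 was called in HE, Cpt1a, the gene of mitochondrial fatty acid entry, at 9.55 and 61.8 CPM (2.68 ± 1.54), and none of 16 in IAHC, where Cpt1a was at 13.8 and 25.8 CPM (0.86) and Slc25a20 was lowest (-0.67). The medians of these 5 lists lay between -0.18 and 0.37 in the 2 populations.

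Of the regulators of fatty acid uptake, 5 of 9 measured genes were called higher in IAHC with a median of 1.05, where 8.79% of all genes were called in its 1 batch, and 1 of 8 in HE with a median of 0.57, where 2.48% were called in both of its batches. In IAHC the homeobox gene Meox2 was at 0.328 and 15.9 CPM (3.67), Klf4 at 7.35 and 103.9 CPM (3.65), Ppargc1b at 8.55 and 25.2 CPM (1.45) and Tcf15, a partner of Meox2 in capillary fatty acid uptake, at 16.6 and 35.5 CPM (1.05). In HE Klf4 was called (1.15 ± 0.20) and Tcf15 was not (0.47 ± 0.14). Meox2 was at 0.299 and 9.12 CPM there (2.96 ± 0.95), under the level required. The nuclear receptor genes Pparg (0.533 and 2.26 CPM in HE) and Ppard (4.21 and 3.05 CPM) were under it too, and Vegfb was lowest of the list (-0.65 ± 0.04 and -0.36).

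Capillary markers outside the set gave 4 calls of 11 measured in HE and 3 of 8 in IAHC, with medians of 0.75 and 0.84. Of all measured genes, 2.48% and 8.79% were called higher. Such medians were not particular to capillary markers. The pan-endothelium list had 0.76 and 0.78, the venous and lymphatic list 0.68 and 1.17, and the arterial list 0.53 and 0.11. In HE Cd300lg was highest, at 0.275 and 14.04 CPM (3.44 ± 0.56), and Esm1 was called (3.08 ± 0.04), while Apln was lowest (-1.12 ± 3.00). In IAHC Rgcc was highest, at 13.3 and 78.5 CPM (2.48). The last 2 genes went the other way there, with Apln called higher at 33.2 and 88.3 CPM (1.39). Esm1 was the lowest of the list in IAHC, at 16.98 and 12.8 CPM (-0.38). Kdr, a receptor for VEGF, had 0.75 ± 0.08 and 0.95, Plvap, a gene of the diaphragms of caveolae and fenestrae, 0.53 ± 0.17 and 0.21, and the water channel gene Aqp1 0.72 ± 0.70 in HE. Of the 14 pan-endothelial genes 2 were called in each, Cdh5 (1.46 ± 0.07 and 1.14) and Robo4 (1.30 ± 0.21 and 1.49). The lists were written with earlier results of these data known.

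The genes most like the set over the 12 sums, by Pearson correlation with the mean of its standardised profiles among 10268 genes, were Pde4b (0.97), Ski (0.96), Tmem252, Ctsz, Ccdc125, Snrk, Hcfc1r1, Tgfbr2 and Cd1d1 (all 0.95) and Ednrb (0.94). Pde4b was also the nearest to Fabp4 (0.98), at 88.5 to 111.7 CPM in E10.5 HE and 264.6 to 391.4 CPM in E11.5 HE. Ednrb, an endothelin receptor gene, was next for both Fabp4 and Cd36 (0.97 each), at 19.4 to 25.8 CPM in E10.5 HE and a mean of 235.7 CPM in E11.5 HE, and at 213.3 to 412.3 CPM in E11.5 GFI1+ IAHC. The gene nearest to Cav1 was Kdr (0.99), to Cav2 Lrp4 (0.97), to Cd36 Sema6a (0.97), to Gpihbp1 Sncg (0.96), to Mgll Kank3 (0.95), to Fabp5 Mgat4a (0.93) and to Lpl Cdc37l1 (0.88). The sums hold both stages and the set was named for its stage difference, so this likeness is a description.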

How the data were processed

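Single cells were sorted into plates and sequenced by a modified Smart-Seq2 protocol, without molecular identifiers. The authors mapped reads to mm10 with STAR 2.7.3 and made the deposited counts per gene with HTSeq 0.9.1, and they gave each cell a cluster and a phase (Scanpy 1.4.4, without batch correction). The deposited annotation also holds, as the authors made it, the fraction of mitochondrial counts per cell and the fluorescence intensity of CD31, CD45 and other sorting markers. Strand and annotation settings, and any removal of doublets from the counts, are not given in the sources used here. In flow cytometry the authors gated on single cells by forward scatter. Cells the authors kept (at least 2500 genes and 50000 counts, at most 5% mitochondrial) were used, 775 of 860. Cell depths ran from 134284 to 2296823 counts.

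Counts were summed per group and batch in Python 3.11.15 (pandas 2.3.3, numpy 2.4.6, scipy 1.17.1) and scaled to CPM. Ratios used 1 CPM added, within a batch, then the mean over batches. A gene was measured at 10 CPM in the higher group and called at 2-fold in every batch. The procedure was tested on simulated data. Alternatives included TMM scaling (edgeR 4.0.16, R 4.3.3). No test was run, since the labels name no embryo or culture and each group counts as 1 sample. Symbols were matched for 45229 of 46078 genes.

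Genes named were the 8 of the set, the highest and lowest measured gene of each lipid or capillary list described, a fixed list of partners, and those most alike in profile. Other called genes of those lists (Klf4, Ppargc1b, Esm1, Robo4) were named after their values were seen. The genes, lists and rules were chosen with earlier results of these data known.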

Additional observations from a re-analysis of the deposited data

Results flagged for a closer look

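Fabp5 was marked because its stage ratio had opposite signs in GFI1+ IAHC of GL78: 1.80 on the log2 scale in cluster 0 and -1.52 in cluster 2. The difference between the clusters was not tested.

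Cells outside the comparisons also held reads above the limit that a count of 0 allows. In the 3 kept GFI1- IAHC cells of E10.5, Fabp5 was at 46.4 CPM, Lpl at 19.3 CPM and Cav2 at 9.45 CPM, the Lpl reads in 1 cell. In the single E10.5 cell left out by the authors, Fabp5 was at 195.1 CPM, Cav1 at 57.4, Cav2 at 55.1 and Gpihbp1 at 39.03 CPM.

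The 84 E11.5 cells left out by the authors differed from the kept E11.5 cells. Lpl was at 143.6 CPM against 9.06 CPM and Cd36 at 177.8 against 52.5 CPM. Fabp4 was at 23.3 against 91.8 CPM, Fabp5 at 114.9 against 263.99 CPM, Gpihbp1 at 15.6 against 50.3 CPM, Mgll at 26.4 against 45.9 CPM, Cav1 at 97.9 against 335.5 CPM and Cav2 at 15.2 against 41.9 CPM. The macrophage list summed to 4261 CPM in the cells left out and 279.9 CPM in those kept, and the pan-endothelium list to 4548 and 10141 CPM. With all sequenced cells, the log2 ratio of Lpl between GFI1+ and GFI1- IAHC was -2.87.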

How the results depend on the processing

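Of 79 summary values under other settings 60 were marked as within 1.5 times the main value. They were counts of called genes, shares of within-cluster ratios and a count of gene levels, the last marked so without a comparison. Of 608 ratios of single genes 497 moved by less than their SD over batches or, with 1 batch, their 95% counting interval, and none that was called changed sign. The counts called between stages ran from 5 to 7 in both populations, and nothing is read from them. The share of all measured genes called higher moved as well, from 1.49% (5 CPM added) to 11.6% (without GL78) in HE. In IAHC it ran from 6.27% (5 CPM added) to 19.8% (at 1.5-fold). Between HE and GFI1+ IAHC at E11.5 the count of 1 was 0 with 5 CPM added, with the mean of single cells or in clusters 0, 1, 3 and 5. It was 2 with TMM or median-of-ratios scaling or without clusters 6 to 10, 4 with the same batches pooled and 5 at 1.5-fold. Without 1 batch it was 1 to 3 (3 without GL78, 2 without GL53). With cells thinned to 50000 counts it stayed 1, but the gene was Mgll and not Cav2. Of all measured genes, 0.212% to 2.92% were called higher and 0.297% to 3.34% lower over these settings. At E10.5 the count of 1 was 4 at 1.5-fold and 0 in clusters 0, 1, 3 and 5. Of all measured genes, 12.4% and 1.26% were then called higher and 7.48% and 1.85% lower. Between GFI1+ and GFI1- IAHC the count of 1 was 2 with the mean of single cells, without the highest cell, at 1.5-fold or with batches pooled, and 3 without either batch. Of all measured genes, 0.503% to 4.001% were called higher and 1.76% to 6.94% lower in these settings. In clusters 0, 1, 3 and 5 the count was 1, which was Mgll and not Lpl. Within clusters, 6 of 16 stage ratios (37.5%) were at least 2-fold higher and 5 lower, 36 and 12 of 72 with 5 or more cells a stage, and 49 of 72 (68.1%) and 4 with batches pooled. The shares of all genes in these pairs are given above, and nothing is read from these counts. The settings on clusters 0, 1, 3 and 5, phase G1 and pooled clusters were chosen after seeing the data. The causes were not tested. Ratios of the main comparisons were each taken within a batch, so their batches were matched. Settings with all batches pooled set unlike batches of the stages against each other. Genes under 10 CPM, Lpl above all, rest on few cells, and Fabp4 at E10.5 on 3 cells.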
